A study of Arabidopsis thaliana with 64 samples.

Results

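The genes described here are 10 Arabidopsis thaliana genes of aliphatic glucosinolate synthesis, chosen by locus from the known pathway. They are 10 of the 32833 genes in the count tables. The regulators are 3 (MYB28, AT5G61420; MYB29, AT5G07690; MYB76, AT5G07700) and the enzymes 7 (MAM1, AT5G23010; MAM3, AT5G23020; BCAT4, AT3G19710; CYP79F1, AT1G16410; CYP79F2, AT1G16400; CYP83A1, AT4G13770; SUR1, AT2G20610).

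The series holds 64 RNA-seq libraries from dark-grown whole seedlings of the Col-0 background that carried a transcription factor (TF) fused to the glucocorticoid receptor (GR), which holds a fused protein out of the nucleus until dexamethasone (Dex) is given. Each of 4 fusions, GR-CHA19, GR-ENAP1, GR-LBD16 and GR-WRI3, was present in 4 independent overexpression lines bulked to the T3 generation, and no library came from plants without a fusion. After 5 days in the dark, seedlings were moved for 24 h to 10 µM Dex or to mock plates, and the seedlings of a plate made up each of the 2 replicates per line and treatment. Comparisons of Dex with mock therefore ask whether a gene changed with Dex in lines that carry a GR-TF. Without plants that lack a fusion, an effect of Dex itself and one of the GR-TF in the nucleus cannot be told apart. Comparisons between mock libraries ask whether the level of a gene differed between sets of lines.

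Glucosinolates are sulfur-rich defence compounds of the cabbage order. In the aliphatic branch, methionine is lengthened by repeated rounds of a cycle that starts with BCAT4 and the MAM synthases, then CYP79F and CYP83A1 enzymes convert the amino acid through an aldoxime, SUR1 cleaves a sulfur conjugate to the thiohydroximate, and a glucosyltransferase and a sulfotransferase finish the core. SUR1 also serves the indole branch, which starts from tryptophan. MYB28, MYB29 and MYB76 are R2R3-MYB activators of the aliphatic genes and act together with the bHLH proteins MYC2, MYC3 and MYC4.

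Total counts per library ran between 2059928 and 7968970, with a median of 5292625.5. The gene fused in each set of lines was higher in its own 16 libraries than in the other 48 for all 4 fusions, without overlap: CHA19 was at 103 to 218 CPM (counts scaled to the same library total) against 50.4 to 79.7, ENAP1 at 127 to 564 against 25.4 to 110, LBD16 at 56.4 to 484 against 8.38 to 18.4, and WRI3 at 33.9 to 206 against 0.205 to 2.36. Markers of dark-grown seedlings were present (PIF3 at 77.7 ± 21.1 CPM and HLS1 at 23.1 ± 9.18 CPM, SD, n = 64), and so were photosynthesis genes of light-exposed leaves (LHCB1.3 at 5375 ± 2290 CPM, RBCS1A at 2297 ± 911 CPM), while the light-induced ELIP1 was at 3.61 ± 4.83 CPM. In 10 libraries the profile stood apart, with a median absolute log2 deviation from the libraries of the same GR-TF over 1.5 times the usual one: GR-CHA19 line 7 Dex replicate 1, line 8 Dex replicate 1 and line 9 Dex replicates 1 and 2, GR-ENAP1 line 2 Dex replicate 1 and line 1 mock replicate 1, GR-LBD16 line 3 mock replicate 1 and line 12 mock replicate 2, and GR-WRI3 line 8 Dex replicate 1 and line 10 Dex replicate 2. Main results for SUR1 are given with and without them, and some of those for other genes.

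Of the 10 genes, 9 were close to silent in these seedlings, and SUR1 was the exception. SUR1 took 8714 counts, or 95.9% of all counts of the 10 genes, and the other 9 took 371 together out of 336683083. A mean under 0.2 CPM was found for 8 of the 10 genes, against 35.3% of all genes. Of the 10, 9 were under 1 CPM, while 18655 of all 32833 genes had a mean over 1 CPM. Divided by exon length, which allows levels to be set against each other, SUR1 was at 13.6 CPM per kb and MYB28 at 0.318 CPM per kb, a ratio of 42.6. MAM3 (0.083), MYB29 (0.078) and MAM1 (0.067 CPM per kb) came next, and the 95% counting intervals of these 3 genes (0.063 to 0.111, 0.061 to 0.109 and 0.049 to 0.089 CPM per kb, exact Poisson) overlapped, so that their order could not be told. CYP79F2 (0.0067), CYP83A1 (0.0035) and CYP79F1 (0.0024 CPM per kb) rested on 4, 2 and 3 counts in all, and BCAT4 and MYB76 had none. Intervals and limits of this kind cover counting error only.

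**Figure D1:**
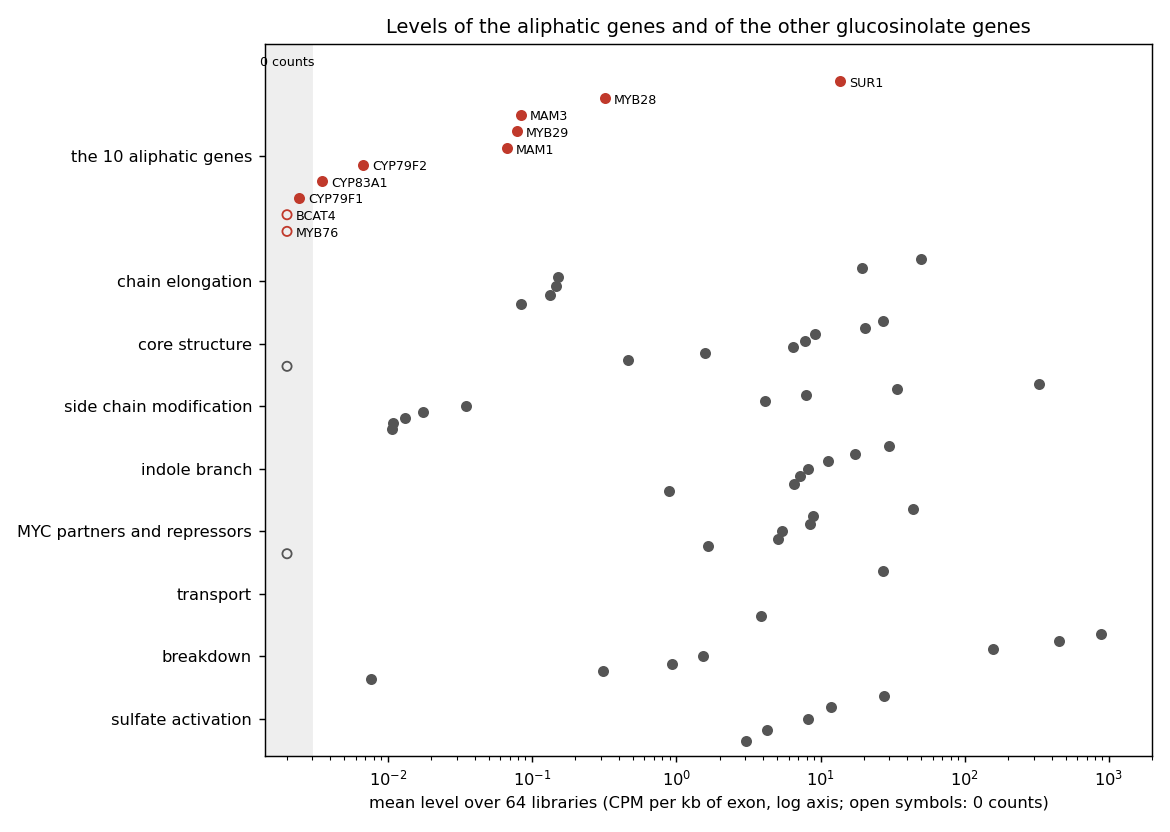
Mean level over 64 libraries in CPM per kb of exon (log axis) of the 10 aliphatic genes (red) and of other glucosinolate genes by list (grey), with open symbols for genes at 0 counts. SUR1, at 13.6 CPM per kb, lies among the indole and core structure genes, and the other 9 lie at or below the 0.318 CPM per kb of MYB28.

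Of the regulators, MYB28 (chr5:24689069-24691187, minus strand, TAIR10.1) was the only one seen in most libraries. It had 216 counts and a mean of 0.630 ± 0.482 CPM (SD, n = 64) and was at 0 in 6 libraries. With Dex it had 124 counts in 32 libraries (0.736 ± 0.535 CPM, 1 library at 0), and in mock 92 counts in 32 libraries (0.524 ± 0.404 CPM, 5 libraries at 0). In GR-CHA19 it ran between 0 and 2.01 CPM with Dex (median 0.650), against 0 to 0.766 CPM in mock (median 0.341), and without the libraries that stand apart its mean was 0.299 CPM with Dex (n = 4) and 0.339 CPM in mock (n = 8). In GR-ENAP1 it ran between 0.337 and 1.09 CPM with Dex (median 1.01), against 0 to 1.03 CPM in mock (median 0.449). In GR-LBD16 it ran between 0.166 and 0.819 CPM with Dex (median 0.524), against 0 to 1.004 CPM in mock (median 0.653). In GR-WRI3 it ran between 0.377 and 2.16 CPM with Dex (median 0.533), against 0 to 1.66 CPM in mock (median 0.576). The line mean was higher with Dex in 3 of 4 lines of GR-CHA19, 4 of 4 of GR-ENAP1 and 2 of 4 each of GR-LBD16 and GR-WRI3. In GR-ENAP1 an exact permutation within lines gave p = 0.0864 (adjusted p = 0.513 over 25 tests). Dex and mock libraries overlapped in all 4 sets of lines.

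**Figure D2:**
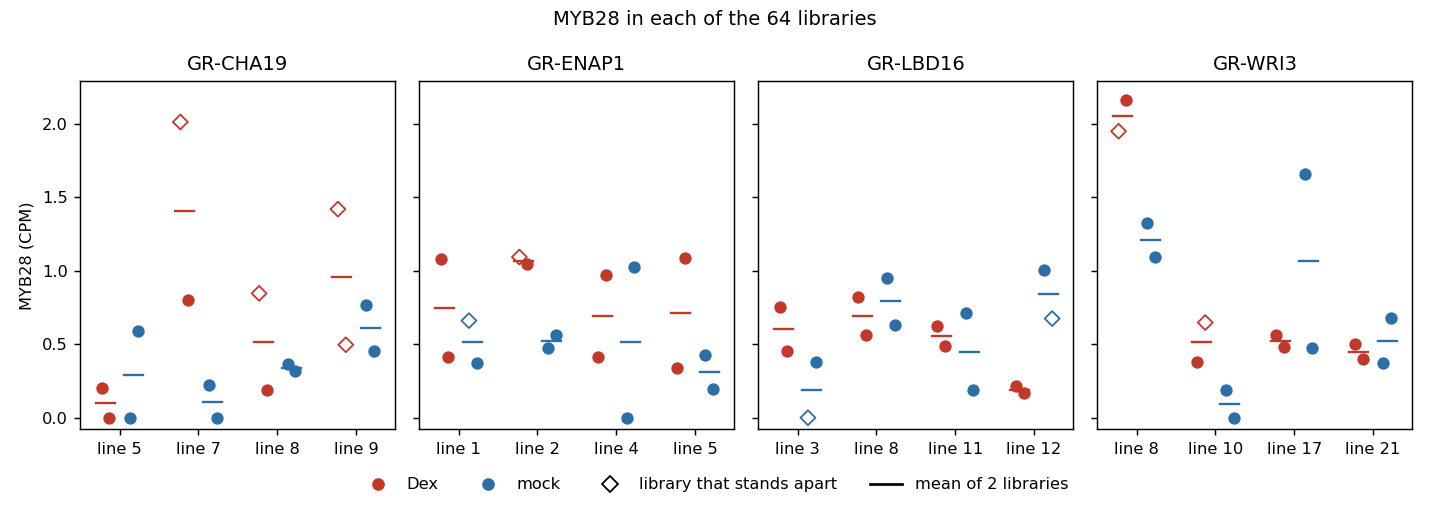
MYB28 in each of the 64 libraries (CPM) by GR-TF and line, Dex in red left of mock in blue, with diamonds for the libraries that stand apart and short bars for the mean of 2 libraries. The points of Dex and mock overlap in every panel, and GR-WRI3 line 8 lies highest, with 4 libraries between 1.09 and 2.16 CPM.

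SUR1 passed the filter on low counts in every fit, MYB28 in the GR-WRI3 fit and the fit over all libraries, and the other 8 genes in none. Over all 16 lines its log2 fold change with Dex was 0.41 ± 0.27 (SE, edgeR quasi-likelihood test, Benjamini-Hochberg adjusted p = 0.841), with 0% of the 19541 genes tested called, and 0.19 without the libraries that stand apart. The Dex effect on MYB28 did not differ between GR-TFs past the threshold (edgeR adjusted p = 0.838, 0% of genes called). In GR-WRI3 the log2 fold change was 0.32 ± 0.41 (SE, edgeR adjusted p = 0.7003), beside 0.0273% of 18311 genes called, that is 5 genes. As a check that needs no filter, the mean Dex minus mock difference over lines, 0.212 CPM, had p = 0.0986 in an exact sign-flip permutation test over 16 lines (two-sided, adjusted p = 0.513 over 25 such tests).

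In GR-WRI3 the MYB28 counts were uneven between lines. Line 8 had 1.95 and 2.16 CPM with Dex and 1.33 and 1.09 CPM in mock, from 35 counts, and averaged 1.63 ± 0.505 CPM (SD, n = 4 libraries). The other lines averaged 0.302 ± 0.277 CPM (line 10), 0.795 ± 0.578 CPM (line 17) and 0.487 ± 0.139 CPM (line 21). No library of lines 10 and 21 reached the lowest of line 8, while 1 mock library of line 17, at 1.66 CPM, lay within its range. The test over the lines gave an edgeR p of 0.0044 and an adjusted p of 0.0636 (0.0938 without the libraries that stand apart), so MYB28 was not among the 880 genes called there, 4.81% of those tested.

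MYB29 (chr5:2446669-2448584, plus strand), another activator of the branch, had 23 counts with Dex and 25 in mock, and was at 0 in 15 Dex and 17 mock libraries. Its mean was 0.138 ± 0.163 CPM with Dex and 0.133 ± 0.164 CPM in mock (SD, n = 32 each). MYB76 (chr5:2450027-2451807, plus strand), 1442 bases beyond MYB29, had 0 counts in all 64 libraries, which allows a level of up to 0.00891 CPM (3 counts of the total). Every 100-base stretch of MYB76 exon occurred once in the genome, and no annotated gene shares its exons.

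Of the chain elongation enzymes, MAM1 (chr5:7703041-7706973, plus strand) and MAM3 (chr5:7718118-7721866, plus strand), neighbouring methylthioalkylmalate synthase genes 11144 bases apart, were found at traces. MAM1 had 25 counts with Dex and 21 in mock, with 13 Dex and 17 mock libraries at 0, and no library was above 0.651 CPM. MAM3 had 18 counts with Dex and 34 in mock, with 21 Dex and 12 mock libraries at 0. Its mean was 0.102 ± 0.178 CPM with Dex and 0.203 ± 0.213 CPM in mock (SD, n = 32 each). This was the widest gap in CPM among the genes with a mean under 0.2 CPM and did not pass the test (exact sign-flip permutation test over 16 lines, two-sided p = 0.0656, adjusted p = 0.513), and without the libraries that stand apart MAM3 had 8 counts with Dex and 30 in mock. BCAT4 (chr3:6846969-6849582, minus strand), the aminotransferase that opens the cycle, had 0 counts, with the same limit of 0.00891 CPM. It shares 307 of its 1451 exon bases with AT3G19700 on the other strand, where reads counted without strand cannot be assigned, and 1144 bases are its own.

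The cytochrome P450 enzymes of the core were seen as scattered reads. CYP79F1 (chr1:5608682-5612064, plus strand) had 3 counts, 2 in GR-ENAP1 line 2 Dex replicate 2 and 1 in GR-WRI3 line 8 Dex replicate 1. CYP79F2 (chr1:5605044-5607498, plus strand), its neighbour at 1183 bases, had 1 count in each of 4 libraries, 2 with Dex and 2 mock. CYP83A1 (chr4:7990429-7992429, minus strand) had 1 count in each of 2 libraries, 1 with Dex and 1 mock. CYP79F1 and CYP79F2 are close copies, but 99.97% and 99.94% of the 100-base stretches of their exons occurred once in the genome. No change with Dex could be detected at this depth for these 3 genes.

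SUR1 (chr2:8877887-8880440, minus strand), the C-S lyase, was counted in every library, at 25.4 ± 11.7 CPM (SD, n = 64). The 250 bases upstream of the annotated start of SUR1 are shown with those of CYP83A1 and CYP79F2, because these windows hold the motifs searched for the known regulators while only SUR1 was well expressed. The search, on both strands, covered the G-box CACGTG that MYC proteins can bind. It also covered the AC elements that R2R3-MYB proteins can bind, which are ACCTACC (type I), its variant ACCAACC (type II) and the variant ACCTAAC (type III). Sequences are from the RefSeq copy of TAIR10.1, written in the direction of the gene, with matches in capitals.
SUR1, chr2:8880441-8880690, minus strand: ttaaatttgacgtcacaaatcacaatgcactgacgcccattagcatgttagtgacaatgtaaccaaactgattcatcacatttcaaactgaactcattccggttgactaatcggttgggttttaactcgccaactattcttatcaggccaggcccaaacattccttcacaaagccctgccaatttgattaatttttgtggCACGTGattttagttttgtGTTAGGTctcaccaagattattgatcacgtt
CYP83A1, chr4:7992430-7992679, minus strand: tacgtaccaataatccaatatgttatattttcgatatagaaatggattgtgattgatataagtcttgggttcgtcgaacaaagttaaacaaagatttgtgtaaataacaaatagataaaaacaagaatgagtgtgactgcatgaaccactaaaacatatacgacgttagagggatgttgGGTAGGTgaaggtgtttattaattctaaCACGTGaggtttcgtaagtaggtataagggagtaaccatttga
CYP79F2, chr1:5604794-5605043, plus strand: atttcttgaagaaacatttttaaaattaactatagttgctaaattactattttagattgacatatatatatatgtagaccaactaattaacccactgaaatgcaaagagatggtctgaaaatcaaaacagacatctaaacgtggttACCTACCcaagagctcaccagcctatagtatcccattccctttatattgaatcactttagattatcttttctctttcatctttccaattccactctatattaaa
The G-box lies 50 to 45 bases before the start of SUR1 and 43 to 38 bases before that of CYP83A1, and it was found in 2 of the 10 genes against 6.49% of the windows of 27443 protein-coding genes. ACCTACC was found in 2 of the 10, CYP79F2 and CYP83A1, against 1.16% of all windows, ACCTAAC in SUR1 alone, against 2.46%, and ACCAACC in none, against 2.69%. In the windows of the 51 other glucosinolate genes, ACCAACC was found in 6, and the G-box, ACCTACC and ACCTAAC in 1 each. These matches are a description of the letters in these windows only.

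In GR-CHA19, SUR1 had 15.1 and 21.3 CPM with Dex against 16.2 and 18.2 CPM in mock in line 5. Line 7 had 63.3 and 17.1 CPM with Dex against 16.9 and 20.6 CPM in mock. Line 8 had 35.4 and 17.1 CPM with Dex against 17.1 and 20.2 CPM in mock, and line 9 had 19.0 and 22.8 CPM with Dex against 12.6 and 19.5 CPM in mock. The highest values, 63.3 and 35.4 CPM, both came from libraries that stand apart. The group means were 26.4 ± 16.2 CPM with Dex and 17.7 ± 2.62 CPM in mock (SD, n = 8 each), a log2 fold change of 0.45 ± 0.23 (SE, edgeR adjusted p = 0.375, 0% of 18272 genes called). Without those libraries, which removes the Dex libraries of line 9 altogether, the means were 17.7 CPM with Dex and 17.7 CPM in mock, and the log2 fold change was -0.059 (edgeR adjusted p = 0.976).

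In GR-ENAP1, line 1 had 17.02 and 21.6 CPM with Dex against 65.2 and 21.7 CPM in mock, and line 2 had 39.9 and 24.5 CPM with Dex against 24.97 and 25.4 CPM in mock. Line 4 had 25.3 and 26.2 CPM with Dex against 30.2 and 24.4 CPM in mock, and line 5 had 23.6 and 18.9 CPM with Dex against 20.5 and 20.8 CPM in mock. Both extremes, 65.2 and 39.9 CPM, again came from libraries that stand apart. SUR1 averaged 24.6 ± 6.94 CPM with Dex and 29.2 ± 14.9 CPM in mock (SD, n = 8 each), a log2 fold change of -0.20 ± 0.17 (SE, edgeR adjusted p = 1.0, 0% of 18506 genes called), and -0.07 without those libraries. Without mock replicate 1 of line 1 it was 0.01.

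In GR-LBD16, line 3 had 28.2 and 27.5 CPM with Dex against 77.6 and 26.2 CPM in mock, and line 8 had 26.4 and 34.5 CPM with Dex against 23.4 and 27.98 CPM in mock. Line 11 had 27.4 and 29.1 CPM with Dex against 27.0 and 22.2 CPM in mock, and line 12 had 27.8 and 25.9 CPM with Dex against 31.6 and 32.7 CPM in mock. The 77.6 CPM of line 3 mock replicate 1, which stands apart, was the highest SUR1 value of the series. The means were 28.4 ± 2.66 CPM with Dex and 33.6 ± 18.1 CPM in mock (SD, n = 8 each), and the log2 fold change was -0.15 ± 0.18 (SE, edgeR adjusted p = 0.701, 0% of 18706 genes called). Without the libraries that stand apart it was 0.070 (edgeR adjusted p = 0.987), and without line 3 mock replicate 1 alone it was 0.074.

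In GR-WRI3, line 8 had 44.3 and 23.1 CPM with Dex against 22.1 and 22.4 CPM in mock, and line 10 had 27.1 and 34.7 CPM with Dex against 17.4 and 27.2 CPM in mock. Line 17 had 15.7 and 15.8 CPM with Dex against 16.4 and 15.4 CPM in mock, and line 21 had 17.2 and 19.7 CPM with Dex against 16.96 and 14.0 CPM in mock. The line mean was higher with Dex in 3 of 4 lines, by 11.5 CPM in line 8, 8.61 CPM in line 10 and 2.95 CPM in line 21, and a Dex library of lines 8 and 10 stands apart, while none of line 21 does. The means were 24.7 ± 10.3 CPM with Dex and 19.0 ± 4.49 CPM in mock (SD, n = 8 each). The log2 fold change was 0.30 ± 0.13 (SE, edgeR adjusted p = 0.315), and 0.15 without the libraries that stand apart. An exact permutation within lines gave p = 0.0247 for the 5.72 CPM difference (two-sided, adjusted p = 0.513 over 25 tests).

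**Figure D3:**
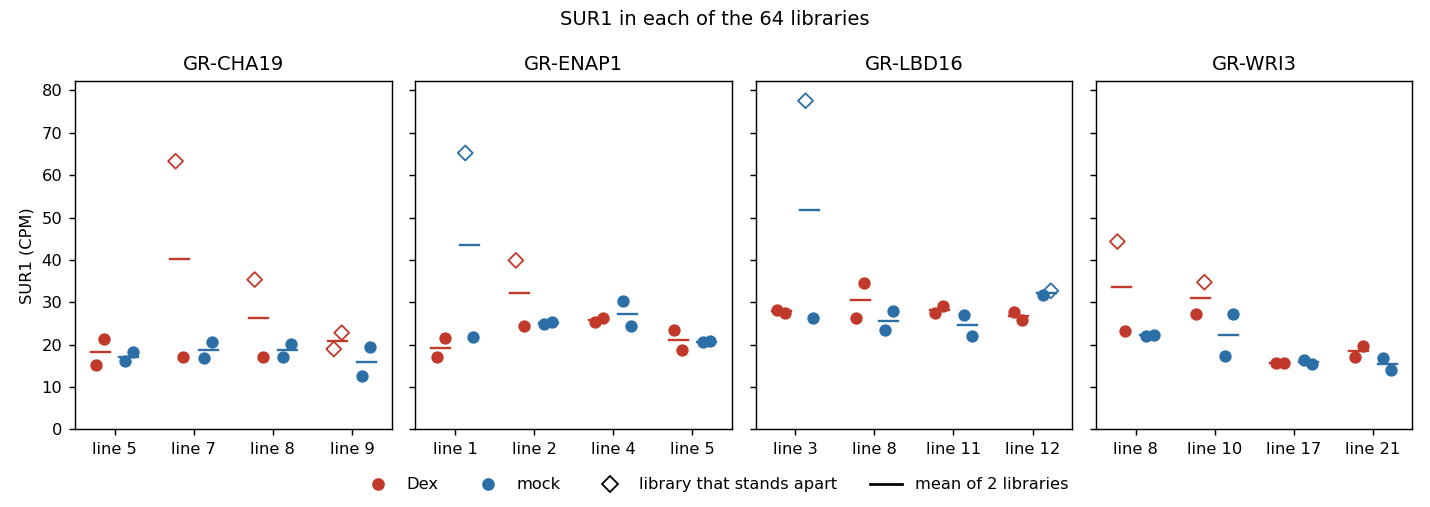
SUR1 in each of the 64 libraries (CPM) by GR-TF and line, Dex in red left of mock in blue, with diamonds for the libraries that stand apart and short bars for the mean of 2 libraries. The libraries at 63.3, 65.2 and 77.6 CPM all stand apart, and the 54 others lie between 12.6 and 34.5 CPM.

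Over all 16 lines SUR1 had a log2 fold change with Dex of 0.09 ± 0.10 (SE, edgeR adjusted p = 0.945) and of 0.03 without the libraries that stand apart. The Dex effect on SUR1 did not differ between GR-TFs past the threshold (edgeR adjusted p = 0.377), and its line by treatment term passed in none of the 4 fits. Of all genes, edgeR called 0 in GR-CHA19, GR-ENAP1 and GR-LBD16 and 5 in GR-WRI3, while 2560, 335, 1180 and 2836 genes had an unadjusted p under 0.05 in that order of GR-TFs, and DESeq2 called 0, 0, 1 and 26.

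**Figure D4:**
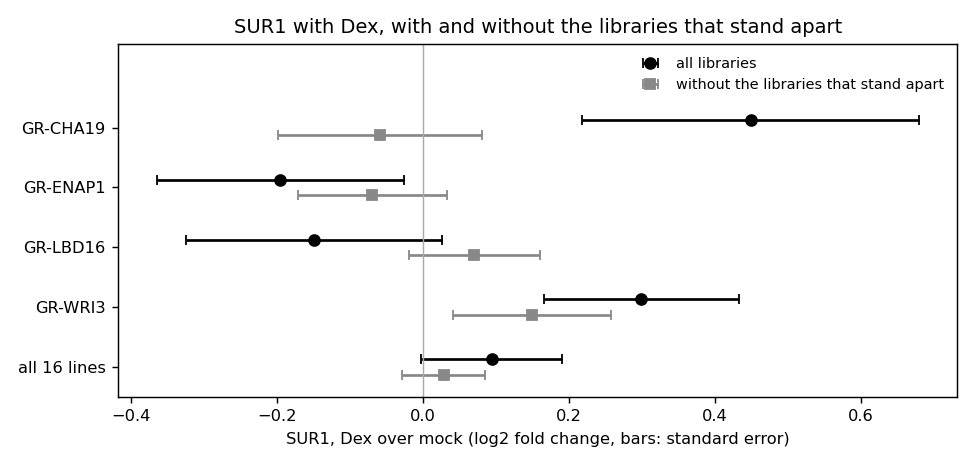
Log2 fold change of SUR1, Dex over mock, in each GR-TF and over all 16 lines, with all libraries (black circles) and without those that stand apart (grey squares). Bars are the standard error. The estimate in GR-CHA19 was 0.45 with all libraries and -0.059 without those that stand apart, and that in GR-LBD16 was -0.15 and 0.070.

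The libraries that stand apart had more SUR1 than the others, with 19.0 to 77.6 CPM (median 37.6, n = 10) against 12.6 to 34.5 CPM (median 21.9, n = 54). Some other genes of the pathway were higher there too: CYP83B1, the indole counterpart of CYP83A1, had a median of 85.2 CPM against 45.0 CPM, GSTU20, a glutathione transferase of the aliphatic branch, 25.1 against 3.71 CPM, and SOT16, a sulfotransferase, 39.8 against 22.5 CPM. MYC3 was lower, with a median of 63.3 CPM against 117 CPM, and so was BGLU30, a beta-glucosidase of the breakdown list, with 758 against 2329 CPM. SOT18, another sulfotransferase, had a median of 6.70 CPM against 9.11 CPM, and the summed side chain list 431 against 653 CPM. The summed level of 5 etiolated seedling markers had a median of 2641 CPM (314 to 4133) in these libraries against 664 CPM (263 to 2118) in the others. In it PORA (1189 against 184 CPM), PORB (1233 against 302 CPM), PIF3 (105 against 73.2 CPM) and HLS1 (39.0 against 20.0 CPM) had higher medians, and PIF4 (33.7 against 73.7 CPM) a lower one. The summed level of 6 seed markers had a median of 53.9 CPM (10.8 to 667) against 15.3 CPM (4.00 to 353), that of 5 root markers 142 CPM (12.2 to 246) against 131 CPM (97.8 to 210), and that of 6 markers of light-exposed leaf 8145 CPM (753 to 11457) against 8007 CPM (3694 to 14322). Within the root and leaf lists members went in different directions: EXPA7 (5.50 against 0.568 CPM), COBL9 (3.53 against 0.189 CPM), RBCS1A (3294 against 1979 CPM), ELIP1 (7.15 against 1.64 CPM) and ELIP2 (9.85 against 4.19 CPM) had higher medians, MYB36 (16.9 against 24.0 CPM), LHCB1.3 (4708 against 5208 CPM), LHCB2.1 (168 against 326 CPM) and LHCB2.2 (120 against 236 CPM) lower ones, and CASP1 (73.1 against 71.9 CPM) and CASP2 (35.2 against 34.8 CPM) were close. No marker list was at 0. The part of these differences in the SUR1 values was not tested, and in whole seedlings fewer cells of a type and less RNA per cell cannot be told apart.

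Between the mock libraries of the 4 sets of lines, SUR1 differed in level. It averaged 17.7 CPM in GR-CHA19, 29.2 CPM in GR-ENAP1, 33.6 CPM in GR-LBD16 and 19.0 CPM in GR-WRI3, and the F-test over line sums gave an edgeR adjusted p of 0.0403, with 38.4% of the 19303 genes tested called, so that SUR1 was 1 of 7408. None of the contrasts of a GR-TF with the mean of the others passed alone: the log2 difference was -0.49 for GR-CHA19 (edgeR adjusted p = 0.1101, 17.7% of genes called), 0.41 for GR-ENAP1 (0.251, 1.63%), 0.53 for GR-LBD16 (0.0534, 37.9%) and -0.44 for GR-WRI3 (0.191, 0.119%). Without the libraries that stand apart the adjusted p of the F-test was 0.0051 (43.2% of genes called), with -0.28 for GR-CHA19 (edgeR adjusted p = 0.0315, 29.6%) and 0.35 for GR-LBD16 (0.0054, 45.6%). In the Dex libraries the same F-test gave an edgeR adjusted p of 1.0. The call was lost, with edgeR adjusted p of 0.0507 to 0.0768, without any line of GR-CHA19, line 12 of GR-LBD16 or line 10, 17 or 21 of GR-WRI3, and without mock replicate 1 of GR-CHA19 line 9, GR-ENAP1 line 4, GR-LBD16 line 11 or GR-WRI3 line 10 or mock replicate 2 of GR-ENAP1 line 1 or GR-LBD16 line 3. GR-TF and any batch of growth cannot be told apart here.

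By the test over lines of the same GR-TF, SUR1 came nearest to the threshold in GR-WRI3, with 28.001 ± 10.9 CPM in line 8, 26.6 ± 7.10 CPM in line 10, 15.8 ± 0.433 CPM in line 17 and 16.9 ± 2.33 CPM in line 21 (SD, n = 4 libraries each). The test over lines gave an edgeR adjusted p of 0.0578, just outside the threshold that 880 genes (4.81%) passed, and 0.0406 without the libraries that stand apart, where 9.61% passed. The edgeR adjusted p was also under the threshold without line 8 (0.0206). It was so too without Dex replicate 1 or 2 of line 8 or mock replicate 1 of line 10. Each of those fits leaves the other replicate alone in its line and treatment, and so cannot decide on a line difference. Without Dex replicate 2 of line 8, the library left alone stands apart. In GR-CHA19, GR-ENAP1 and GR-LBD16 the adjusted p was 0.724, 0.669 and 0.965, beside 0.00547%, 0.0378% and 0.0321% of genes called, although the line means of GR-LBD16 ran between 26.4 and 39.9 CPM. Of the 51 other glucosinolate genes in the lists, tested or not, 4 passed in GR-WRI3. The 51 include genes too low to be tested, so this share cannot be set against the 4.81% of all genes tested. All 4 had higher means in lines 8 and 10 than in 17 and 21. These means include the libraries that stand apart, line 8 Dex replicate 1 and line 10 Dex replicate 2. In these 2, GSTU20 was at 24.0 and 16.2 CPM, BCAT3 at 57.8 and 43.4, SOT16 at 55.7 and 33.0, and TGG2 at 2.44 and 6.26 CPM. TGG2, a myrosinase, averaged 5.03, 4.04, 0.545 and 1.07 CPM in lines 8, 10, 17 and 21 (edgeR adjusted p = 0.0100), and BCAT3, an aminotransferase that also acts in chain elongation, 33.8, 28.8, 16.2 and 16.4 CPM (0.0332). SOT16 averaged 32.0, 30.3, 13.9 and 19.6 CPM (edgeR adjusted p = 0.0353), and GSTU20 10.2, 7.49, 1.59 and 2.58 CPM (0.0436).

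A relation of the activator MYB28 with SUR1 over libraries did not pass the test. On log2(CPM + 1), Pearson's r over 64 libraries was 0.16 (permutation p = 0.203) and Spearman's rho was 0.165 (permutation p = 0.193), with an adjusted p of 0.904 for r over the 28 pairs of the 8 genes with any count. It was 0.07 without the 2 libraries farthest from the median of MYB28 and 0.03 without those that stand apart. Within GR-CHA19 r was 0.56 (permutation p = 0.0276, adjusted p = 0.138) while rho was 0.298 (permutation p = 0.262). Within GR-LBD16 r was -0.41 (permutation p = 0.111) and rho, of the other sign, 0.050. Within GR-ENAP1 r was 0.02 and rho 0.032, and within GR-WRI3 r was 0.28 and rho 0.109. All 28 pairs had r between -0.25 and 0.24, and none passed after adjustment. As deviations from the mean of each line and treatment, MYB28 and CYP83A1 had r = -0.39 (permutation p = 0.00114, adjusted p = 0.00798 over 7 pairs) and rho = -0.306 (permutation p = 0.00941, adjusted p = 0.0659), where CYP83A1 had 1 count in each of 2 libraries and 0 in the others. The 2 libraries of a line and treatment deviate by equal amounts in opposite directions. The permutation took the 64 deviations as independent, so these p-values are too small and cannot decide on a relation.

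SUR1 followed other genes closely. Over 64 libraries, as deviations from the GR-TF mean of log2(CPM + 1), the genes most like it, a ranking chosen after the data were seen, were GSTF9, a glutathione transferase (r = 0.949), SYNC1, an asparaginyl-tRNA synthetase (0.923), sks17 (0.921), AT5G13400 (0.920), MTO1, the cystathionine gamma-synthase that leads to methionine (0.920), AT5G02870 (0.918), CRT1b (0.916), AT1G09690 (0.916), UGD2 (0.916) and CNX1 (0.913). The median over the 18654 genes ranked was 0.22, and without the libraries that stand apart GSTF9 had r = 0.769 with SUR1. Of the glucosinolate genes, SOT16 (r = 0.8997) and CYP83B1 (0.899) were nearest to SUR1, with 0.667 and 0.703 without those libraries, and BGLU30 (-0.878) and MYC3 (-0.873) were farthest, with -0.539 and -0.549 without those libraries. These values share the same libraries, and the libraries that stand apart hold most of the SUR1 range. The genes most like the mean of the members, by standardized levels, were AT1G75150 (r = 0.655), AT2G19380 (0.636), AT5G20180 (0.635), AT2G04680 (0.633), AT3G06035 (0.632), TBL32 (0.625), AT5G39570 (0.625), PAN (0.624), AT1G65010 (0.623) and APG10 (0.622), with a median over all genes of 0.14. Without the libraries that stand apart their r ran between 0.421 and 0.486. Standardized levels weigh each member alike, so CYP79F1, CYP79F2 and CYP83A1, with 3, 4 and 2 counts, weigh as much as SUR1. This ranking therefore rests largely on scattered reads.

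**Figure D5:**
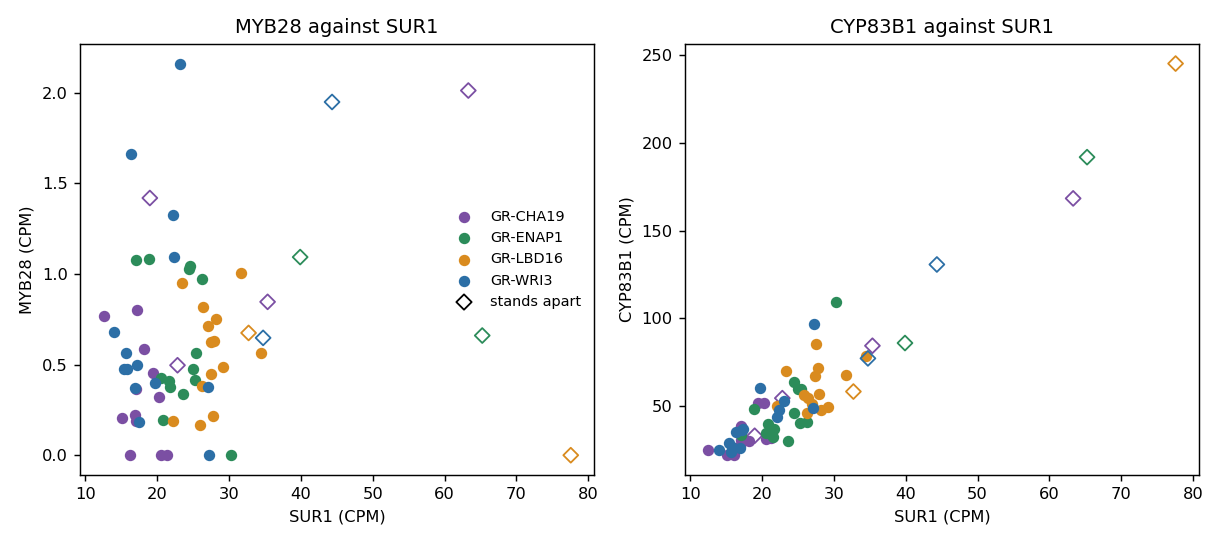
MYB28 (left) and CYP83B1 (right) against SUR1 in each of 64 libraries (CPM, linear axes), coloured by GR-TF, with diamonds for the libraries that stand apart. MYB28 had r = 0.16 with SUR1 on the log2 scale, while CYP83B1 climbs with SUR1 (r = 0.899 as deviations from the GR-TF mean) and 3 diamonds hold the upper end.

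The rest of the pathway was expressed unevenly, beside 18655 of all 32833 genes with a mean over 1 CPM. Of the other chain elongation genes 2 of 6 had a mean over 1 CPM, BCAT3 (33.9 CPM) and IIL1, the large subunit of isopropylmalate isomerase (101 CPM). Of the core structure genes 6 of 8 did, of the side chain genes 4 of 9, of the indole branch 7 of 7, of the MYC partners and repressors 6 of 7, of the transporters 2 of 2, of the breakdown genes 5 of 7 and of the sulfate activation genes 5 of 5. The 2 genes of these lists at 0, GSTF11 and MYC2, share all or nearly all of their exon bases with a gene on the other strand, and 48 of the 3289 exon bases of MYC2 are its own, so that a 0 says little about them.

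With Dex over all 16 lines none of the genes tested in any of these lists passed the edgeR test, beside 0% of all genes. The median log2 fold change was 0.04 for chain elongation (2 genes), 0.02 for the core structure (7), 0.02 for the side chain (4), 0.01 for the indole branch (7), 0.01 for MYC partners and repressors (6), -0.07 for transport (2), 0.26 for breakdown (6) and 0.06 for sulfate activation (5), against 0.00 over all genes. The highest values were those of TGG2 (0.43, edgeR adjusted p = 0.655) and BGLU28 (0.39, 0.776), and the lowest those of SOT17 (-0.21, 0.954) and CYP81F2, an indole glucosinolate hydroxylase (-0.19, 0.901).

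Between mock libraries of the GR-TFs, the F-test called 1 of 2 chain elongation, 2 of 7 core structure, 3 of 4 side chain, 2 of 7 indole, 1 of 6 MYC, 0 of 2 transport, 2 of 5 breakdown and 0 of 5 sulfate genes, beside the 38.4% of all genes. BCAT3 averaged 18.4 CPM in GR-CHA19, 44.2 CPM in GR-ENAP1, 50.3 CPM in GR-LBD16 and 19.8 CPM in GR-WRI3 (edgeR adjusted p = 0.0036), and GSTU20 averaged 1.91, 12.02, 20.04 and 3.15 CPM in the same order (0.0073). MYB34, an activator of the indole branch, averaged 7.75, 18.3, 22.2 and 9.30 CPM (edgeR adjusted p = 0.0205). These 3 genes had their highest and lowest means in the same sets of lines as SUR1. The GR-ENAP1 and GR-LBD16 means include mock libraries that stand apart, and those of GR-CHA19 and GR-WRI3 include none. In GR-ENAP1 line 1 mock replicate 1, GR-LBD16 line 3 mock replicate 1 and line 12 mock replicate 2, GSTU20 was at 59.4, 58.9 and 34.1 CPM. BCAT3 was at 120, 95.7 and 60.4 CPM there, and MYB34 at 60.0, 60.4 and 31.7 CPM. MYC3 averaged 141, 99.6, 80.6 and 138 CPM (edgeR adjusted p = 0.0057), BGLU30 2883, 1797, 1173 and 2586 CPM (0.0106) and GSOX4, a side chain S-oxygenase, 90.7, 61.6, 62.9 and 84.9 CPM (0.000296), and for these the GR-CHA19 mean was the highest.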

How the data were processed

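Whole dark-grown seedlings were profiled by nonstranded polyA RNA-seq in 64 libraries. Per the submitters' processing notes, reads were handled with Trim Galore 0.6.0, FastQC 0.11.7 and STAR 2.7.0f on TAIR10, and the authors deposited raw counts per gene for 2 sequencing runs of each library, which were summed here into 1 replicate. Without strand, reads of overlapping genes cannot be assigned, which can leave such genes at or near 0. The 10 members and the gene lists were chosen with earlier results of these data known.

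Counts were fitted per GR-TF with edgeR 4.0.16 in R 4.3.3 (robust quasi-likelihood, TMM factors, filterByExpr, a mean per line and treatment), the mock levels on counts summed per line, and 1 fit used all libraries. The Benjamini-Hochberg adjustment ran over every gene tested, with a threshold of 0.05. DESeq2 1.42.0 and negative binomial regression (glm.nb of MASS 7.3.60.0.1) were alternatives, as were other scalings, no filter, and leaving out libraries or lines. P-values of the Dex and line fits and of the permutations within lines measure the spread between plates. Those of the mock levels and of the sign-flip test over all lines measure the spread between lines. CPM are counts scaled to the library total, CPM per kb is divided by the union of exons, and exact tests used scipy 1.17.1. Exact permutations ran over 1296 arrangements within a GR-TF and 65536 over all lines, correlations over 100000 resamples. The fits were tested on simulated data. Coordinates and sequences are from the RefSeq copy of TAIR10.1, whose chromosome sequences carry the loci of the tables. Of the lists, 1 locus was not analysed here. Same-numbered libraries of a line deviated together in some lines and in opposite directions in others. Their r ran between -0.40 and 0.48 in 16 lines (median 0.007, over 0.1 in 6). Numbers were not treated as pairs in the main fits. Named list genes were those past the threshold, up to 6 per comparison by lowest p, and the 2 highest and 2 lowest Dex fold changes over all lines.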

Additional observations from a re-analysis of the deposited data

Results flagged for a closer look

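In 18 of 48 groups of 8 libraries of a GR-TF and treatment, the highest library lay far beyond the next by Dixon's gap test. Chance alone gives about 1 in 20 groups for normally distributed values. This does not apply to the genes with 0 to 4 counts a library, and whether it applies to the SUR1 CPM was not tested. For SUR1, the 5 such groups were those with 63.3 CPM in GR-CHA19 line 7 Dex replicate 1, 39.9 CPM in GR-ENAP1 line 2 Dex replicate 1, 65.2 CPM in GR-ENAP1 line 1 mock replicate 1 and 77.6 CPM in GR-LBD16 line 3 mock replicate 1, all libraries that stand apart over the whole profile, and 34.5 CPM in GR-LBD16 line 8 Dex replicate 2, which does not.

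The other 13 groups rest on 1 to 4 counts, and the 8 of CYP79F1, CYP79F2 and CYP83A1 have 1 library above 0 and the others at 0, which the gap test had to pick. MYB29 was at 0.627 CPM (3 counts) in GR-CHA19 line 5 Dex replicate 2, the library in which MAM1 was at 0.418 CPM (2 counts), and MYB29 was at 0.431 CPM (2 counts) in GR-ENAP1 line 1 Dex replicate 1. MAM3 was at 0.676 CPM (3 counts) in GR-LBD16 line 3 Dex replicate 2 and at 0.879 CPM (4 counts) in GR-CHA19 line 7 mock replicate 1. CYP79F1 was at 0.348 CPM (2 counts) in GR-ENAP1 line 2 Dex replicate 2 and at 0.162 CPM (1 count) in GR-WRI3 line 8 Dex replicate 1. CYP79F2 had 1 count in GR-LBD16 line 11 Dex replicate 2 (0.243 CPM), GR-WRI3 line 21 Dex replicate 1 (0.167 CPM), GR-CHA19 line 7 mock replicate 2 (0.271 CPM) and GR-LBD16 line 11 mock replicate 2 (0.189 CPM). CYP83A1 had 1 count in GR-WRI3 line 10 Dex replicate 1 (0.188 CPM) and GR-ENAP1 line 4 mock replicate 1 (0.238 CPM).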

How the results depend on the processing

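The SUR1 log2 fold change with Dex changed direction without the libraries that stand apart in GR-CHA19 (-0.059 against 0.45) and GR-LBD16 (0.070 against -0.15), and passed the threshold with glm.nb in GR-CHA19 (0.45, adjusted p = 0.0311) and GR-WRI3 (0.31, adjusted p = 0.00705), where glm.nb called 5727 and 4742 genes (292 in GR-ENAP1, 2437 in GR-LBD16). Leaving out 1 library or line gave 0.18 to 0.59 in GR-CHA19, -0.35 to 0.082 in GR-ENAP1, -0.28 to 0.074 in GR-LBD16, 0.18 to 0.41 in GR-WRI3 and, by line, 0.04 to 0.17 over all lines and adjusted p of 0.274 to 0.550 for the difference between GR-TFs. It passed in edgeR without GR-CHA19 line 7 Dex replicate 2 (0.59, adjusted p = 0.00573), GR-LBD16 line 3 mock replicate 2 (-0.28, 0.0104) and GR-WRI3 line 8 Dex replicate 2 (0.39, 0.0124), each of which leaves a library that stands apart alone in its line and treatment, assumed to vary like the others, and 8691, 8656 and 4816 genes were then called.

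The edgeR or DESeq2 adjusted p of the SUR1 line test in GR-WRI3 was 0.0404 with library size alone and 6.27e-05 with no filter. It was 0.0406 without the libraries that stand apart and 0.0146 in DESeq2. The last 3 of these 4 settings called 4718, 1779 and 2407 genes. SUR1 did not pass in the other 2 settings that kept every line. The fit of mock libraries only, which called 1371 genes, was 1 of these 2. It holds no GR-WRI3 library that stands apart. Leaving out libraries or lines gave adjusted p of 0.0208 to 0.992 in GR-CHA19, 0.0300 to 0.963 in GR-ENAP1, 0.000143 to 1 in GR-LBD16 and 0.000435 to 0.298 in GR-WRI3. In the first 3, 450, 665 and 569 genes were called without the libraries that stand apart and 130, 203 and 98 by DESeq2.

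The mock level of SUR1 had an adjusted F-test p of 1.0 in Dex libraries (10 genes called), where the contrasts of GR-CHA19 (0.14) and GR-ENAP1 (-0.16) changed sign, and of 0.0086 to 0.0768 leaving out libraries or lines, not passing in 14 of 48. The contrasts then ran over -0.56 to -0.39, 0.06 to 0.55, 0.23 to 0.72 and -0.52 to -0.33. The Dex calls in GR-WRI3 (5 genes) were 1599 with no filter, 26 with DESeq2, 13 without the libraries that stand apart, 8 in the additive design, 2 in the fit of all libraries and 3 with the replicate block, which changed no SUR1 call. The MYB28 and SUR1 correlation was 0.56 within GR-CHA19 and -0.41 within GR-LBD16. Causes were not tested. Leaving out each library was not run for the fits of all libraries. At this depth the low counts of 9 of the 10 genes limited what could be tested for them.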
